A study of Drosophila melanogaster with 91 samples.

Results

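The Jonah genes and the trypsin genes of Drosophila melanogaster encode secreted serine proteases of the gut. The genes described here were those of the count table whose symbol is Jon followed by a number, or the English name of a Greek letter followed by Try. This rule, which used no measured value, gave 27 genes, 16 Jonah and 11 trypsin, of 15682 gene identifiers. Transcripts were measured by CEL-Seq, which sequences barcoded 3′ ends of polyadenylated RNA, in 91 single whole embryos. The labels give no strain, mutation or treatment. Each embryo was dechorionated, kept at 25°C and frozen at a chosen time counted from cellularization, when the surface nuclei of the young embryo become closed off into cells. Labelled times ran from -15 to 1335 min, 15 min apart, with 1 embryo at each. Embryos were compared as late (960 to 1335 min, n = 26) against mid (570 to 945 min, n = 26), and within the late embryos as window 7 (1155 to 1335 min, n = 13) against window 6 (960 to 1140 min, n = 13). The 39 earlier embryos (-15 to 555 min) are described only.

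Serine proteases of this type are made as inactive precursors by cells of the midgut epithelium and are released into the gut lumen. There they cut dietary protein, trypsins after basic residues and the chymotrypsin-like enzymes mostly after other residues, and the fragments are taken up by the enterocytes. In the fly such genes lie in tandem groups that arose by duplication, and the larva begins to feed soon after it hatches. The substrates of the single Jonah and trypsin enzymes are not described here beyond this class.

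Levels are counts per 1000000 gene counts (CPM). Because CEL-Seq reads start from the transcript's end they were not divided by length, and levels are compared between embryos and, between genes, only as these 3′ counts. Gene counts per embryo ranged from 391819 to 3308015 in late embryos and from 433347 to 2747282 in mid embryos. In a whole embryo, fewer cells of a type and less RNA per cell cannot be told apart. The deposited sample sheet gives a lane and a library index, and embryos that share an index are called a pool here. Those from 660 to 990 min shared 1 index and those from 1005 to 1335 min another, so for most late embryos pool and age cannot be told apart. Late embryos were not uniform: 10 of the 26 had high heat shock transcripts, and the embryos at 1290 and 1305 min stood apart in protease level. The main counts of calls are therefore also given without them.

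The 27 genes had few or no counts through most of embryogenesis, and nearly all of their transcript was found in the late embryos. They drew 78186 counts over all 91 embryos, of which 96.4% were in the 26 late embryos, 3.13% in the mid embryos and 0.476% in the 39 earlier ones. The median embryo's summed level, in order of the 7 windows of 13 embryos, was 0, 2.16, 5.31, 3.42, 16.0, 106 and 593 CPM. The rise was not even from embryo to embryo. In window 7 the summed level ran from 0 CPM at 1155 min to 17073 CPM at 1305 min.

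**Figure D1:**
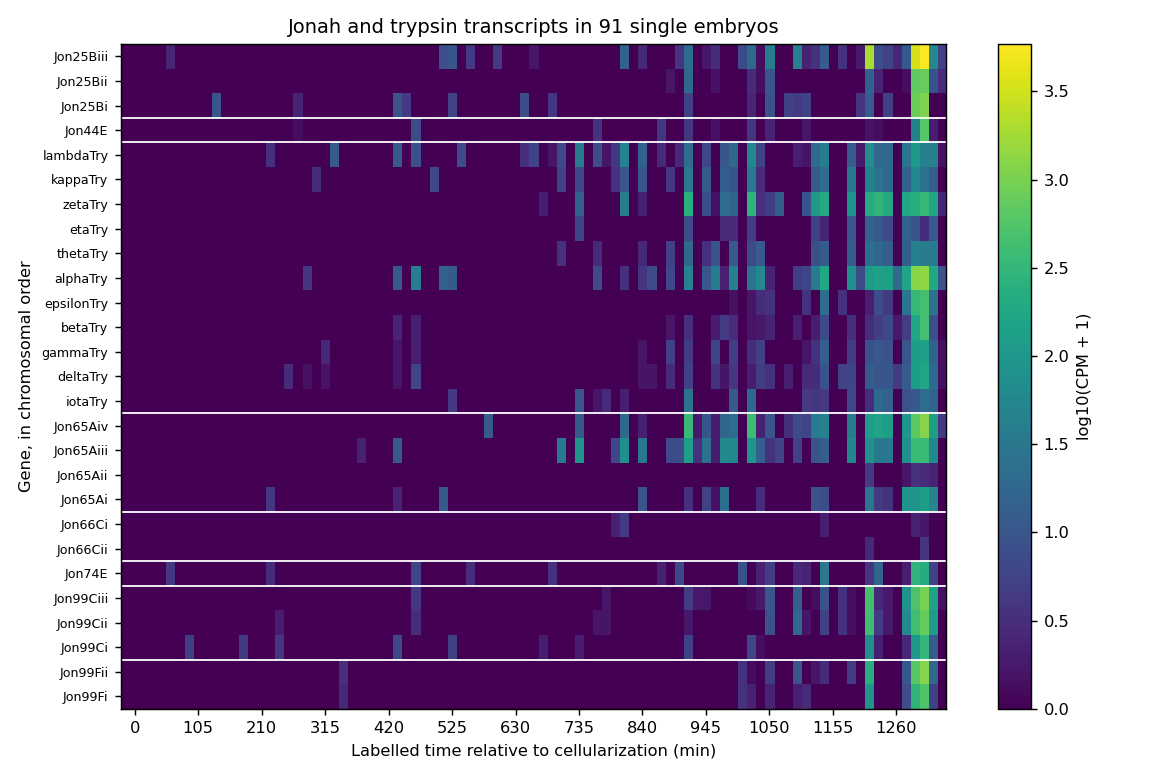
Level of each of the 27 genes (rows, in chromosomal order, white lines between neighbour groups) in each of the 91 single embryos (columns, by labelled time in min), as log10(CPM + 1). The embryos at 1290 and 1305 min stand out over nearly all rows, the embryo at 1215 min over the Jon25Biii, Jon99C and Jon99F rows, and scattered embryos from 705 min on over the Jon65A and zetaTry rows.

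Onset was first read as the earliest labelled time at which a gene reached 10 CPM with at least 3 counts. By this measure 24 of the 27 genes had an onset, at a median of 1095 min, with a range from 330 to 1290 min. Jon65Aii, Jon66Ci and Jon66Cii stayed under 10 CPM in every embryo, with 20, 12 and 7 counts over the whole course. A sustained onset, the first time at which at least 3 of 5 consecutive embryos reached that level, was found for 17 genes at a median of 1275 min.

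The earliest onsets belonged to trypsins and to the Jon65A group. The gene lambdaTry (FBgn0043470) reached 10.8 CPM at 330 min, from 14 counts, and alphaTry (FBgn0003863) reached 40.6 CPM at 465 min, from 39 counts. Jon65Ai followed at 510 min with 10.5 CPM and Jon65Aiv at 585 min with 11.0 CPM. Of the 24 genes with an onset, 22 were back under 10 CPM in the next embryo, 18 of them at 0. For alphaTry at 465 min and kappaTry at 915 min the first onset was also the sustained one. The level of alphaTry did not last, however. It met the rule with the embryos at 465, 510 and 525 min, and had counts in 0 of the 13 embryos of 570 to 750 min. With 20 CPM as the level, its sustained onset was at 960 min.

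The mid embryos showed the same jumps. Among them the summed level was highest at 915 min, with 929 CPM and counts for 20 of the 27 genes, while the neighbours at 900 and 930 min had 16.0 and 4.02 CPM. At 915 min Jon65Aiv stood at 344 CPM, zetaTry at 243 CPM and Jon65Aiii at 124 CPM. The embryos at 735 and 810 min came next with 173 and 213 CPM, again led by Jon65Aiii, at 90.6 and 77.6 CPM. Of the 22 genes with any mid count, 15 had their highest mid level in the embryo at 915 min.

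Between 705 and 915 min a further group followed, with Jon65Aiii at 705 min, zetaTry at 735 min, Jon25Biii at 810 min, and Jon25Bii, iotaTry, kappaTry and thetaTry at 915 min. The later onsets were those of the Jon99C and Jon99F groups, of Jon25Bi, Jon44E and Jon74E, and of the remaining trypsins. Jon99Cii and Jon99Ciii first passed 10 CPM at 1095 min, epsilonTry, gammaTry and Jon74E at 1140 min, and Jon25Bi, Jon99Ci, Jon99Fi, Jon99Fii, deltaTry and etaTry at 1215 min. Jon44E and betaTry did so only at 1290 min. The order depends on the level chosen: the median onset was 660 min at 5 CPM, where 24 genes qualified, and 1215 min at 20 CPM, where 23 did.

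**Figure D2:**
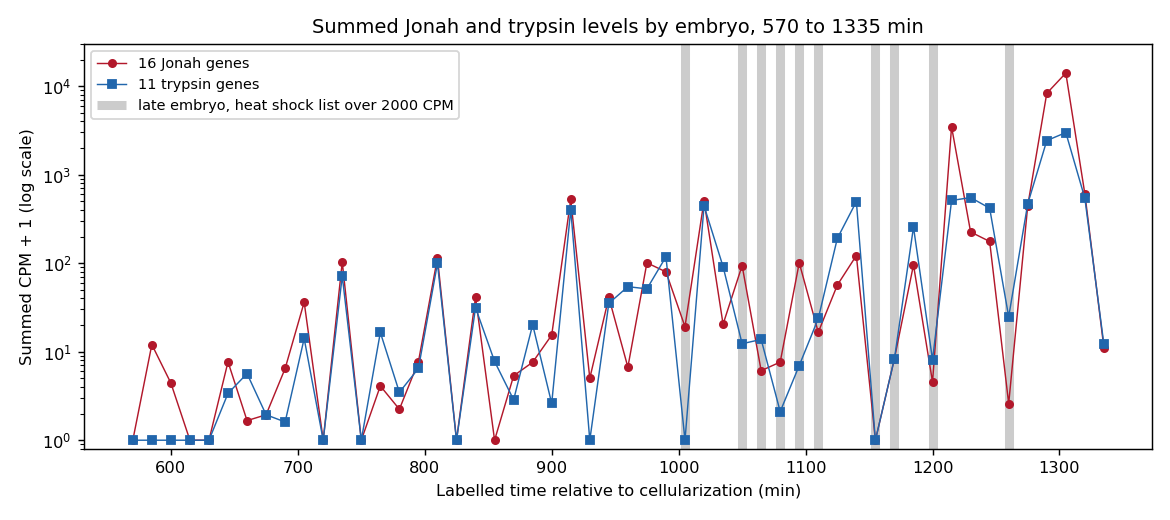
Summed CPM of the 16 Jonah genes (circles) and the 11 trypsin genes (squares), plus 1, on a log axis, in each single embryo from 570 to 1335 min. Lines join neighbouring labelled times, which are different embryos. Grey bars mark the 10 late embryos whose heat shock list summed to over 2000 CPM, in which the 27 genes together reached at most 106 CPM.

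Late embryos had more protease transcript than mid embryos, in sum and for nearly every single gene. The summed level had a lowest value of 0, a median of 130 and a highest value of 17073 CPM in late embryos, against 0, 6.49 and 929 CPM in mid embryos. The filter on low counts set for the test left 0 of the 27 genes to test in this comparison, because most late embryos held few or no counts of them. Without a filter, limma voom with Benjamini-Hochberg adjustment, a fit chosen after seeing the data, called 26 of the 27 higher in late embryos at an adjusted p under 0.05, where it called 25.1% of all 13759 genes higher. edgeR's quasi-likelihood test without a filter called 23 of 27 higher, against 14.9% of all genes, and neither test called a member lower, where limma voom called 5.87% and edgeR 5.39% of all genes lower.

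The median log2 difference of the 27 genes was 2.32 by limma voom, beside 0.35 over all genes, and 5.87 by edgeR without a filter, beside 0.11 over all genes. By limma voom it was 1.83 without the embryos at 1290 and 1305 min, and 3.49 without the 10 embryos high in heat shock transcripts. Those 10 were all late. The mid embryos at 600, 615 and 630 min also had over 2000 CPM in the heat shock list, and they were kept. Their summed protease levels were 3.42, 0 and 0 CPM, so low embryos were left out on the late side only. With the 5 genes that had no mid count set at the lower bound of their fold change, the median over all late embryos was 2.65 by limma voom and 5.87 by edgeR. The limma voom values come from counts with 0.5 added, which understates the change of sparse genes. The late and mid embryos overlapped for all 27 genes. This was fixed by the late embryo at 1155 min, which held no count of any of them in a library of 473860 gene counts. No gene had counts in more than 21 of the 26 late embryos. The share of all genes with such an overlap was not counted.

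Of the trypsins, alphaTry had the largest log2 difference by limma voom. It had a lowest level of 0, a median of 30.4 and a highest of 1332 CPM in late embryos, against 0, 0 and 45.8 CPM in mid embryos. The log2 difference by limma voom was 5.31 with an SE of 0.73 (adjusted p = 8.3e-07). edgeR without a filter gave larger ones for epsilonTry, 9.25, and betaTry, 7.72, than for alphaTry, 5.87. Counts of alphaTry were found in 21 of 26 late and 7 of 26 mid embryos. The gene zetaTry (FBgn0011556) had a median of 14.0 and a highest level of 329 CPM in late embryos, against 0 and 243 CPM in mid embryos. By limma voom zetaTry was higher in late embryos by 4.47 ± 0.89 (adjusted p = 0.00019). Its highest mid embryo, at 915 min, lay above 23 of the 26 late ones.

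Some of the trypsins were close to absent before 960 min. No count of epsilonTry (FBgn0010425) was found in the 26 mid embryos, which makes its pooled level at least 495-fold higher in late embryos, taking 3 counts over the mid group as the floor. This bound leaves out the spread between embryos, and 88.8% of its late level was at 1290 and 1305 min. The gene betaTry had 1158 late and 4 mid counts, and deltaTry had 773 late and 11 mid counts. By limma voom the log2 differences were 2.85 ± 0.50 for epsilonTry (adjusted p = 2.9e-05), 2.72 ± 0.46 for betaTry (adjusted p = 2.0e-05) and 3.25 ± 0.48 for deltaTry (adjusted p = 2.6e-06).

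The first 5 trypsins of the chromosomal order and iotaTry were present in some mid embryos already, but they were not alone in this. Of these, etaTry had counts in only 2 mid embryos, against 7 for alphaTry, 4 for deltaTry and 3 for gammaTry. The level of lambdaTry had a median of 7.04 and a highest value of 108 CPM in late embryos, against 0.613 and 48.7 CPM in mid embryos, and it had counts in 18 late and 14 mid embryos. For kappaTry the median was 5.18 and the highest value 58.4 CPM in late embryos, against 0 and 32.0 CPM in mid embryos. For thetaTry they were 6.80 and 44.3 CPM in late embryos, against 0 and 16.7 CPM in mid embryos. All were called higher in late embryos by limma voom, with log2 differences of 2.19 ± 0.72 for lambdaTry, 2.20 ± 0.69 for kappaTry, 2.65 ± 0.59 for thetaTry, 2.00 ± 0.48 for etaTry and 1.88 ± 0.59 for iotaTry (SE, highest adjusted p 0.019). The gene gammaTry had 699 late and 13 mid counts and was higher by 2.81 ± 0.51 (adjusted p = 5.2e-05). edgeR without a filter did not call lambdaTry (adjusted p = 0.052) or iotaTry (adjusted p = 0.080).

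Among the Jonah genes, Jon65Aiv (FBgn0250815) had the largest difference by limma voom. edgeR without a filter gave only 3.19 for it, against 8.44 for Jon25Biii and its highest Jonah value, 10.5, for Jon99Fii. Jon65Aiv stood at a median of 12.5 and a highest level of 1234 CPM in late embryos, against 0 and 344 CPM in mid embryos, a log2 difference of 4.33 ± 0.85 by limma voom (adjusted p = 0.00016). Jon25Biii (FBgn0031653) alone gave 27.1% of all counts of the 27 genes. Its median was 3.39 CPM and its highest level 5878 CPM in late embryos, against 0 and 20.3 CPM in mid embryos, a difference of 3.42 ± 0.82 (adjusted p = 0.0015). Jon65Aiii (FBgn0035665) was the Jonah gene found in the most mid embryos: its median was 10.6 and its highest level 366 CPM in late embryos, against 0 and 124 CPM in mid embryos, with counts in 18 late and 10 mid embryos. Its difference was 2.91 ± 0.89 by limma voom (adjusted p = 0.012), while edgeR without a filter did not call it (adjusted p = 0.098). Jon65Ai had 943 late and 29 mid counts and differed by 2.32 ± 0.59 (adjusted p = 0.0027).

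Other Jonah genes had a late median of 0 CPM and a small number of embryos with high levels. Jon25Bi had counts in 10 late and 3 mid embryos, with highest levels of 1085 CPM late and 6.68 CPM mid, and a log2 difference of 1.85 ± 0.60 (adjusted p = 0.018). Jon25Bii had counts in 11 late and 2 mid embryos, up to 793 CPM late and 18.9 CPM mid (1.83 ± 0.60, adjusted p = 0.019). Jon44E had counts in 9 late and 3 mid embryos, up to 602 CPM late and 3.10 CPM mid (1.27 ± 0.50, adjusted p = 0.049). Most embryos of both ages were at 0 CPM for these 3 genes. Jon74E differed by 2.08 ± 0.52 (adjusted p = 0.0024) and Jon99Ci by 1.54 ± 0.52 (adjusted p = 0.022).

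The Jon99F pair was found in no mid embryo. Taking 3 counts over the 26 mid embryos as the floor, the pooled level of Jon99Fii (FBgn0039777) was at least 1106-fold higher in late embryos and that of Jon99Fi (FBgn0039778) at least 493-fold. Jon99Cii had 3439 late and 3 mid counts, a pooled ratio of 986 with an exact 95% counting interval from 337 to 4783. By limma voom the log2 differences were 2.92 ± 0.62 for Jon99Cii, 2.98 ± 0.65 for Jon99Ciii, 2.22 ± 0.49 for Jon99Fi and 2.77 ± 0.55 for Jon99Fii (highest adjusted p 0.00055). Intervals and floors of this kind cover counting error only and leave out the spread between embryos. That spread was wide: Jon99Cii had no count in 13 of the 26 late embryos, and 87.8% of its late level was at 1215, 1290 and 1305 min. It is also not known here whether the counts are of independent molecules. The lowest-count members were Jon65Aii, higher by 1.06 ± 0.25 (adjusted p = 0.0014), Jon66Cii by 0.77 ± 0.25 (adjusted p = 0.019) and Jon66Ci, which with 7 late and 5 mid counts was not called (0.47 ± 0.28, adjusted p = 0.19). Jon65Aii had counts in only 5 late embryos and Jon66Cii in 2. With scaling to the spike-ins limma voom called neither, at 0.33 for Jon65Aii (adjusted p = 0.30) and 0.011 for Jon66Cii (adjusted p = 0.97).

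Scaling to the ERCC spike-ins, synthetic RNAs added to each sample, moved the median log2 difference of all genes to -0.37 by limma voom without a filter. The median of the 27 genes was then 1.71, 26 of them were still higher in late embryos, the exception being Jon66Ci, and 15 were called, where 4.50% of all genes were called higher. Within the library pool that held both ages, 3 late embryos (960 to 990 min) against 20 mid ones, no member was called higher or lower by either test. There limma voom called 0.0538% and edgeR 0.0154% of all genes higher, and limma voom put 14 of the 23 members with counts higher. Without the embryos at 1290 and 1305 min it called 23 of 27, where it called 22.8% of all genes higher. The calls lost there were those of Jon44E, Jon99Ci and lambdaTry.

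All 27 genes averaged more in window 7 than in window 6, but edgeR called none of them between the windows. With the set filter it tested 7 of the 27 and called none, as it called 0% of 6151 genes in either direction. All 7 were higher in window 7, alphaTry by a log2 difference of 3.35 ± 1.07 (SE, adjusted p = 0.32) and zetaTry by 1.48 ± 1.08 (adjusted p = 0.56). At an unadjusted p under 0.05 there were 740 genes, 4 of these 7 among them. The DESeq2 test called 61 genes (0.992%) and 2 of the 7, Jon65Aiv and alphaTry. Without a filter, edgeR and limma voom called none of the 27, with 22 and 14 of them at an unadjusted p under 0.05, and each called 0.00756% of all genes. Without the embryos at 1290 and 1305 min they also called none, with 11 by edgeR and 4 by limma voom at an unadjusted p under 0.05, and 24 of the 27 were higher in window 7. With the set filter 0 of the 7 tested then had an unadjusted p under 0.05. For the fits without a filter, here and below, the share of all genes at that unadjusted p is not given. Those member counts therefore cannot be weighed against all genes.

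The window medians show how unlike the genes were. The level of zetaTry had a lowest value of 0, a median of 174 and a highest value of 329 CPM in window 7, against 0, 8.44 and 296 CPM in window 6. For alphaTry these were 0, 115 and 1332 CPM in window 7, against 0, 5.20 and 176 CPM in window 6. At least 10 CPM of zetaTry was found in 8 embryos of window 7 and 6 of window 6, and of alphaTry in 9 embryos of window 7 and 6 of window 6. For Jon25Bi (FBgn0020906) the median was 0 CPM in window 7 and 0 CPM in window 6, although its mean was 149 ± 364 CPM in window 7 and 1.64 ± 2.50 CPM in window 6 (SD, n = 13 each). Its highest embryo reached 1085 CPM in window 7 and 7.54 CPM in window 6. The windows overlapped for every one of the 27 genes, which was fixed by the embryo at 1155 min, with no count of any of them. The share of all genes with such an overlap was not counted.

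**Figure D3:**
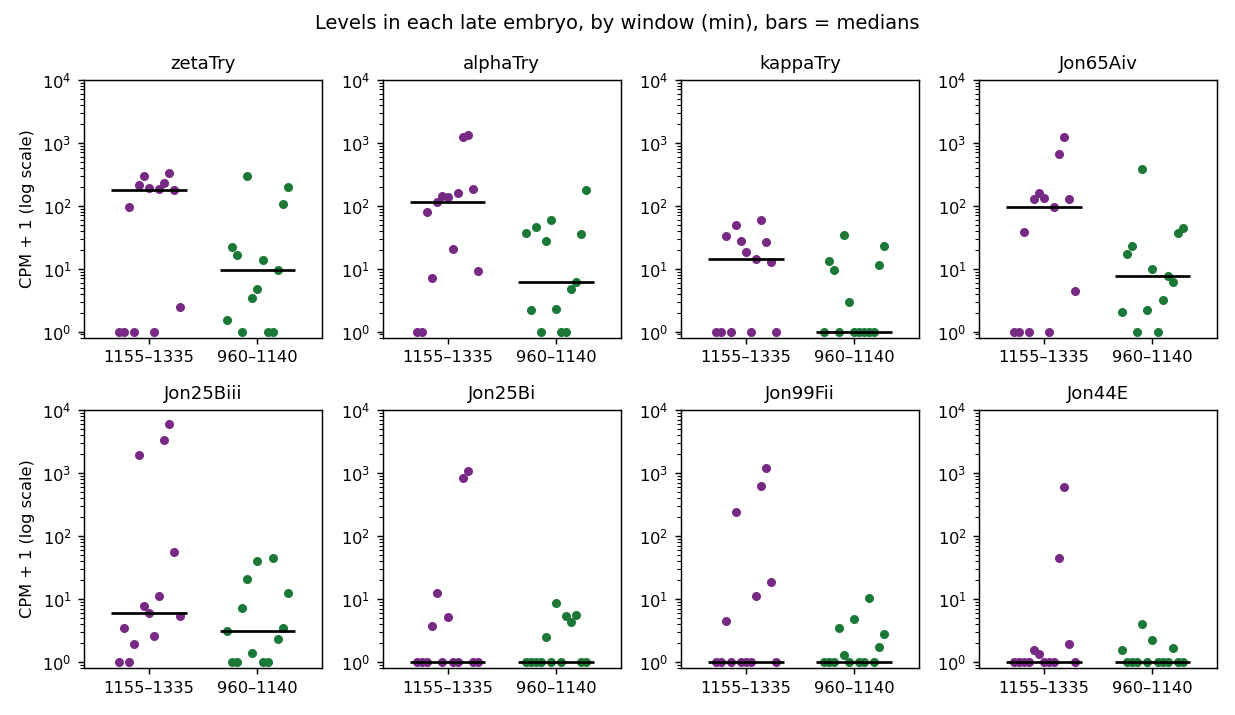
Level of 8 genes in each of the 26 late embryos, as CPM + 1 on a log axis, with 13 embryos of 1155 to 1335 min on the left and 13 of 960 to 1140 min on the right of each panel, in order of time within a window. Bars are medians. The upper genes are spread over many embryos, while Jon25Bi, Jon99Fii and Jon44E are under 20 CPM in all but 2 or 3 embryos of the later window.

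A linear trend over the 26 late embryos, without a filter, was called by edgeR for 16 of the 27 genes, all rising with time, where 1.88% of all 13233 genes were called rising. The steepest slope was that of Jon99Fii, with a log2 change per 60 min of 2.04 ± 0.35 (SE, adjusted p = 0.0014). Without the embryos at 1290 and 1305 min the edgeR trend called 3 of the 27, Jon65Aii, Jon99Cii and Jon99Ciii and not Jon99Fii, where 0.812% of all genes were called rising. Without the 10 embryos high in heat shock transcripts it called 15, where 1.20% were called rising. By limma voom none of the 27 was called in the same trend, with 17 at an unadjusted p under 0.05 and 0.0831% of all genes called rising. Without the embryos at 1290 and 1305 min, limma voom put 24 of the 27 rising, 5 of them at an unadjusted p under 0.05, and called none. With the set filter edgeR tested 7 of the 27 and called none, where it called 0.114% of 6151 genes.

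The spread between late embryos was wide for these proteases. Among genes with a late mean of at least 10 CPM, the coefficient of variation (SD divided by mean over 26 embryos) had a median of 2.65 for the 21 of the 27 genes that reached this mean, against 0.706 for all 5549 such genes. It ranged from 1.25 for zetaTry to 4.70 for Jon44E (FBgn0001285), the highest of all 5549. The edgeR estimate of variation beyond counting noise, as a coefficient, had a median of 2.18 in the 21 and 0.748 in all. Without the embryos at 1290 and 1305 min the median coefficient of variation was 2.08 for the 21 and 0.708 for all, and without the 10 embryos high in heat shock transcripts it was 2.06 and 0.449. In both cases the genes were still those with a mean of at least 10 CPM over all 26 embryos. Genes high only at 1290 and 1305 min entered through those embryos, so their wide spread is partly built in. Jon44E, for example, was at most 3.02 CPM in every other late embryo.

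**Figure D4:**
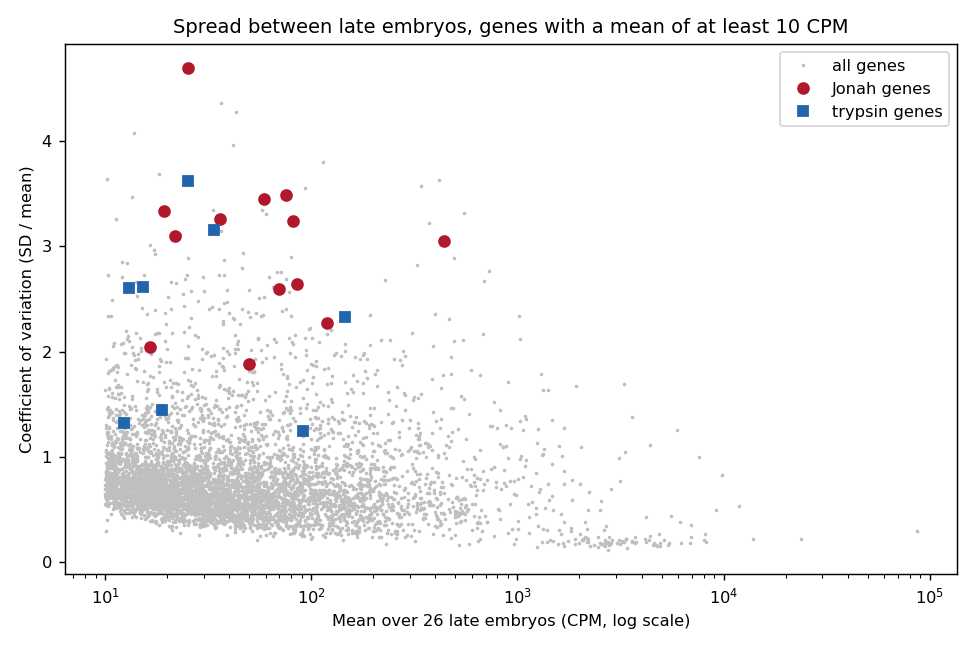
Coefficient of variation over the 26 late embryos against mean CPM (log axis) for the 5549 genes with a late mean of at least 10 CPM. Among them, 13 Jonah genes (circles) and 8 trypsin genes (squares) lie between 1.25 and 4.70, above the median of 0.706 of all genes.

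Single embryos held most of the late transcript. The embryos at 1290 and 1305 min gave 72.7% of the CPM of the 27 genes summed over the 26 late embryos, and the one at 1215 min another 10.4%. Of the 21 genes with a late mean of at least 10 CPM, 16 (76.2%) had their 2 highest levels at 1290 and 1305 min, as did 107 of all 5549 genes (1.93%). This pair was picked because the summed level of the 27 genes was highest there, so the count for the 21 follows in part from that choice. It is a description and no separate support. The 2 highest late embryos of a gene held a median of 75.2% of its summed level among the 21, against 18.9% among all. The next embryo in time, at 1320 min, had 1147 CPM in sum, and the oldest, at 1335 min, had 21.2 CPM.

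The genes fell along a range from concentrated to widespread. At one end, the share of the late summed level found at 1290 and 1305 min was 98.9% for Jon44E, 98.0% for Jon25Bi, 97.6% for Jon25Bii, 81.1% for Jon25Biii and 86.5 to 88.2% for the Jon99F pair. At the other end it was 12.7% for etaTry and 23.5% for zetaTry. An even spread over 26 embryos would put 7.69% into any pair of them, but this pair was picked as the highest in the summed level. The Jon65A group lay between, with shares from 46.0 to 61.2%.

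Position within the trypsin group went with this share. By the RefSeq annotation of assembly Release 6 plus ISO1 MT, all 11 trypsin genes follow each other on chromosome arm 2R, with 2 other genes between gammaTry and deltaTry and 1 between deltaTry and iotaTry. In that order the first 5, lambdaTry, kappaTry, zetaTry, etaTry and thetaTry, had 12.7 to 33.0% of their late level at 1290 and 1305 min. The next 5, alphaTry, epsilonTry, betaTry, gammaTry and deltaTry, had 67.5 to 93.3%. The last, iotaTry, had 23.9%. Summed over the first 5, the embryos at 1215, 1290 and 1305 min held 371, 446 and 439 CPM, while the sum over the next 5 was 138, 1973 and 2531 CPM in the same embryos. The coefficients of variation of the first 5 genes ran from 1.25 to 1.45 and those of the next 5 from 2.33 to 3.62. This division was seen in the values and was not tested.

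The embryo at 1215 min held a different mix of these transcripts from those at 1290 and 1305 min. Its summed level was 3991 CPM, of which the Jonah genes made up 87.2%, and Jon25Biii alone stood at 1946 CPM. The neighbours of Jon25Biii, Jon25Bi and Jon25Bii, were only at 11.2 and 13.9 CPM there, although at 1290 min they reached 840 and 694 CPM and at 1305 min 1085 and 793 CPM. Jon99Cii and Jon99Ciii were at 414 and 452 CPM at 1215 min. Jon44E was at 0.535 CPM at 1215 min, 43.9 CPM at 1290 min and 602 CPM at 1305 min.

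The balance of Jonah genes and trypsins shifted from embryo to embryo. Over the late embryos with any count, the Jonah share of the summed level ran from 6.25% at 1260 min to 100% at 1005 min. Those 2 extremes rest on only 32 and 15 counts of the 27 genes and are uncertain. The Jonah share was 66.5% at 975 min, 53.4% at 1020 min, 19.6% at 1140 min, 87.2% at 1215 min, 28.9% at 1230 min, 77.4% at 1290 min and 47.7% at 1335 min. The value at 1335 min comes from 44 counts, while those at 1140 and 1215 min come from 1713 and 7458. The embryo at 1305 min was the only late one with counts for all 27 genes, while those at 1215 and 1290 min had counts for 26.

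Some of these genes are near-identical copies, and the level of each single copy is uncertain where counting may assign its reads to the other, which was not measured. In embryos with at least 20 counts for the pair, Jon99Ciii made up 42.1 to 64.7% of the Jon99Cii and Jon99Ciii counts, and at 1305 min its share was 56.4% (Wilson 95% interval 54.5 to 58.3%). The gene gammaTry made up 40.5 to 60.7% of its pair with deltaTry. Jon99Fii made up 59.6 to 79.2% of the Jon99F pair. In the Ensembl BDGP6 annotation Jon44E overlaps CG8586 and deltaTry overlaps CG13202 on the opposite strand. The strand setting of the counting is not given in the sources used here, so reads of these partners cannot be told apart.

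Late embryos also differed widely in heat shock transcripts, and the proteases were low where these were high. In 10 late embryos, 4 of window 7 and 6 of window 6, a list of 15 heat shock genes summed to between 3088 and 9612 CPM, and in the other 16 to between 472 and 1657 CPM. In those 10 the summed protease level had a lowest value of 0, a median of 18.0 and a highest value of 106 CPM, against 21.2, 605 and 17073 CPM in the other 16. No count of any of the 27 genes was found at 1155 min, where 3 counts would have been 6.33 CPM. Muscle transcripts, from 9 genes, summed to 611 to 12688 CPM in the 10 and to 15759 to 45974 CPM in the 16. Midgut regulators and enterocyte genes summed to 90.7 to 482 CPM in the 10 and to 611 to 1125 CPM in the 16. The spike-in share of counts had a median of 8.58% in the 10 and 4.47% in the 16. Gene counts had a median of 864454 in the 10 and 2328610 in the 16, and the 3 late libraries of lowest depth, at 1065, 1155 and 1170 min, were all among the 10. The part of these differences in the protease levels was not tested.

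The single genes followed that division to different degrees, and the difference between genes was not tested. No count of kappaTry, thetaTry or etaTry was found in any of the 10 embryos, while in the other 16 kappaTry had counts in 14, with a median of 15.4 and a highest level of 58.4 CPM. The level of zetaTry was at most 12.8 CPM in the 10, with counts in 3, and in the 16 it had a median of 179 CPM with counts in all. Jon25Bi had counts in 5 of the 10, at up to 7.54 CPM, and in 5 of the 16. Leaving out these 10 embryos, limma voom without a filter called 23 of 27 genes higher in late than in mid embryos, where it called 22.9% of all genes higher. The mid embryos at 600, 615 and 630 min, also over 2000 CPM in the heat shock list, were kept in that fit. Between windows 7 and 6 limma voom then called none of the 27, with 9 at an unadjusted p under 0.05, and 0% of all genes.

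Some other digestive enzymes were also called higher in late embryos. Of a list of 28 amylase, maltase, lysozyme, lipase and other protease genes, 7 passed the set filter and edgeR called 3 of them higher in late than in mid embryos and 0 lower, where it called 14.7% of 6481 genes higher and 6.79% lower. The 3 were maltase genes: Mal-A1 at 2.88 ± 0.76 (SE, log2, adjusted p = 0.0055), Mal-A8 at 2.81 ± 0.63 (adjusted p = 0.0012) and Mal-A3 at 2.38 ± 0.81 (adjusted p = 0.031). This list summed to 2925 and 3196 CPM at 1290 and 1305 min, its 2 highest values, and to 1061 CPM at 1215 min.

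Of the list of midgut regulators and enterocyte genes, mex1 was found in every late embryo, at 9.95 to 161 CPM, as were Hnf4 and srp. In contrast, Myo61F, Ssk, mesh, Tsp2A, lab and GATAe were at 0 CPM in at least 1 late embryo. The list is not particular to late embryos: its sum already had a median of 213 CPM in window 1 (-15 to 165 min). Of 11 midgut regulators and enterocyte genes, all were tested and 1 was called higher in late embryos, where 14.7% of all genes were, Myo61F, a myosin of the enterocyte brush border (1.53 ± 0.54, adjusted p = 0.035). Their summed level was 890 CPM at 1290 min and 768 CPM at 1305 min, inside the late range of 90.7 to 1125 CPM, and it was 819 CPM at 1335 min, where the proteases were at 21.2 CPM.

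The remaining lists were read in the same comparison, against the same 14.7% of genes called higher. Heat shock genes were higher for 8 of 10 tested, with Hsp26 at 3.40 ± 0.64 (adjusted p = 0.00012). Cuticle genes were higher for 4 of 10, neuronal genes for 3 of 10, muscle genes for 2 of 9, fat body genes for 2 of 3 and peritrophic matrix genes for 0 of 1. None of these lists had a gene called lower, and between windows 7 and 6 no gene of any list was called.

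The genes whose level over the 26 late embryos was most like the summed protease level were ranked by Spearman's rho among 5265 genes, for which the median was 0.097. Alp5, an alkaline phosphatase gene, came first with 0.96. The others with a name were Mf, which encodes myofilin of the muscle thick filament (0.94), Ag5r2 and Cyp4d1 (0.93 each), Pgcl, a pepsinogen-like gene (0.93), VhaAC45, Got1, Rpi, Mpcp1 and the troponin C gene TpnC25D (0.92 to 0.93). These points share library depth and the heat shock division described above, and the values are descriptions. Alp5 and Ag5r2 were highest at 1305 min, as the proteases were, with 166 and 185 CPM, whereas Mf and TpnC25D were highest at 1275 min.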

How the data were processed

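CEL-Seq read counts per gene for 91 single embryos were analysed. The authors deposited whole-number counts, not normalized. A deposited sample sheet of another kind, whose values are not measurements, gives lane and library index, and embryos that share an index are called a pool. The submitters' processing notes name build BDGP5 and the tools HTSeq 0.5.4p3, Bowtie2 2.1.0 and CASAVA 1.8. Whether counting used strand or molecular identifiers is not given in the sources used here. Of all counts, 60.7% fell on genes, 3.29% on spike-ins, 16.6% outside annotated genes, 2.44% were ambiguous and 17.1% were not aligned. The summary lines for low mapping quality and for multiple alignment hold 0 counts.

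CPM were counts divided by an embryo's gene counts, times 1000000. Symbols were matched by identifier to a name table for 15001 of 15682 identifiers. Library totals had a median of 1644069 gene counts and ranged from 3662 to 3308015. In 6 embryos, 3 of them late and 1 mid, the total was under 548023 counts, the median divided by 3, and these were left out in 1 alternative. The 7 windows follow labelled time alone. There is 1 embryo at each time and the labels do not name mothers, so a p-value here measures spread between single embryos, which includes change over time.

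Comparisons used edgeR 4.0.16's quasi-likelihood F-test in R 4.3.3 with filterByExpr, TMM normalization and p-values adjusted by Benjamini-Hochberg (threshold 0.05). filterByExpr kept 0 of the 27 genes in late against mid embryos. The design was kept, and limma voom (limma 3.58.1, 0.5 counts added) and edgeR without a filter are reported beside it. The voom fits without a filter were chosen after seeing the data, because the filter kept none of the genes. The fits were tested on simulated data. DESeq2 1.42.0 was a further alternative. SEs are fold change over the square root of F for edgeR. Other alternatives were DESeq2 size factors, spike-in scaling, fits within 1 pool, a linear trend, other filters and leaving out each embryo.

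Genes named are every member called or averaging at least 10 CPM in window 7, up to 4 called genes of each list, and the 10 genes most like the summed level, without CG or CR symbols. Members and lists were chosen with earlier results of these data known. No sequences or coordinates are given, since no genome of the counts' build was used here. Shares of copy pairs carry Wilson 95% intervals (SciPy 1.17.1).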

Additional observations from a re-analysis of the deposited data

How the results depend on the processing

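For late against mid embryos, the set test had 0 members to test and so called 0. It called 2 of 3 tested without the shallow libraries, where 1030 of 6630 genes were called higher. It called 21 of 24 with a filter of 10 counts in 2 embryos (1553 of 10053 genes higher), which was added after seeing the data, and 23 of 27 without a filter. Leaving out each embryo in turn gave 0 to 1. The 1 was alphaTry, which passed the filter when any of the embryos at 585, 600, 615, 630, 660, 675, 720, 780, 810, 825, 870, 930, 975, 1005, 1050, 1065, 1080, 1110, 1155 or 1170 min was left out. DESeq2 size factors, spike-in scaling, the DESeq2 test and limma voom with the set filter also had no member to test, and within pool 6 it called 0 of 8.

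The limma voom count of 26 without a filter, with its alternatives, was added after seeing the data. It was 15 with spike-in scaling and 0 within pool 6, and 17 by the DESeq2 test without a filter (1620 of 13759 genes higher). edgeR without a filter gave 17 without the embryos at 1290 and 1305 min (1754 of 13732 genes higher) and 0 within pool 6. Leaving out each embryo gave 24 to 27, and Jon44E lost its call in 32 of those 52 fits. Within pool 6 the log2 difference by limma voom was negative for Jon25Bi (-0.55), Jon25Bii (-0.19), Jon25Biii (-0.59), Jon44E (-0.25), Jon66Ci (-0.45), Jon74E (-0.59), Jon99Ci (-0.64), Jon99Cii (-0.39) and Jon99Ciii (-0.66). That of Jon66Ci was also negative with spike-in scaling (-0.33) and at -0.0030 without the 10 late embryos high in heat shock transcripts. The cause of these changes was not tested, except that pool 6 holds only 3 late embryos.

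For window 7 against window 6, the set test called 0 members and the DESeq2 test 2. Leaving out each embryo gave 0 to 0, also by limma voom without a filter. Against that 0, the DESeq2 test without a filter called 8, all higher (38 of 13233 genes higher). In the linear trend edgeR without a filter called 16, 3 without the embryos at 1290 and 1305 min and 15 without the 10 embryos high in heat shock transcripts. The median onset was 1095 min at 10 CPM, 660 min at 5 CPM and 1215 min at 20 CPM. The median coefficient of variation was 2.65, 2.88 with TMM library sizes and 2.47 without the shallow libraries. No paired analysis was possible because nothing in the labels pairs embryos across windows, and replicate numbers only name them.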
